A study of Mus musculus with 8 samples.

Results

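The genes described are 8 of the 31053 genes counted in adult mouse tibia, and together they stand for the main products of a developing red cell. They are the alpha globin genes Hba-a1 and Hba-a2, the adult beta globin genes Hbb-bs and Hbb-bt, the heme synthesis gene Alas2, the membrane anion exchanger gene Slc4a1, the erythroid transcription factor gene Klf1 and the carbonic anhydrase gene Car2. They were chosen by name for their roles in the red cell, and they were followed in erythroblast-like cells, meaning barcodes with at least 1000 detected genes and at least 2 unique molecular identifiers (UMIs) of Hemgn, an erythroid nuclear protein gene that is not one of the 8. Of 12564 barcodes, 641 met this definition and are called Hemgn cells below.

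Cells were released by enzymatic digestion from the tibiae of mice at postnatal day 56 (8 weeks), and their transcripts were sequenced from the 3′ end as droplet libraries. All mice were untreated and carried 1 floxed Mmp14 allele (MMP14 F/+), a Cre under the Col10a1 promoter of hypertrophic chondrocytes (COL10A1cre), a Cre-dependent tdTomato reporter at Rosa26 (R26-tdT) and a GFP under a Col1a1 fragment active in osteoblasts (Col1a1-2.3-GFP). The cells came from 3 pooled mice, and the early digestion suspensions, rich in blood cells, had been discarded, so that the blood cells described here are those left after this step. The labels put all 8 samples in 1 group and no barcode is marked with its sample or mouse, so barcodes that libraries share could not be counted. The matrix was treated as 1 sample with no replicate, no test or p-value was computed, and all intervals are exact 95% intervals that cover counting error only.

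Red cells arise in the bone marrow from progenitors that express Kit and Cd34 and pass through erythroblast stages before the nucleus is expelled. During these stages alpha and beta globin chains are made in large amounts and combine with heme, whose synthesis in red cells starts with the enzyme encoded by Alas2. The membrane is tied to a skeleton of spectrin and ankyrin through the anion exchanger encoded by Slc4a1, which swaps chloride for bicarbonate. Bicarbonate is produced by carbonic anhydrases such as the product of Car2, which also supplies the protons with which osteoclasts dissolve bone mineral. Klf1 encodes a transcription factor that binds CACCC motifs in the promoters of adult beta globin and many other red cell genes.

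The matrix held 91463572 UMIs, with a median of 5417 per barcode (500 to 103543). The samples are labelled as chondro-osteogenic, but among the 8023 barcodes of at least 1000 genes the marker gates were filled mostly by blood cells. Cd79a (3 UMIs or more), a B cell receptor gene, selected 2594 cells, and S100a8 (50 or more per 10000 UMIs), a neutrophil gene, selected 2467. Kit and Cd34 together (1 UMI or more of each) selected 111 cells, the cartilage collagen gene Col2a1 (10 UMIs or more) 354, the osteoblast gene Bglap (20 UMIs or more) 56, and Acp5 with Ctsk (10 UMIs or more of each), which mark osteoclasts, 15. Hemgn cells held a median of 10526 UMIs and 1684 genes, against medians of 3528 UMIs in Cd79a cells, 7476 in S100a8 cells and 17130 in Col2a1 cells.

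Of the 12 genes of the erythroblast marker list, Hemgn included, 11 were in the file, and all 11 were seen in at least 25% of Hemgn cells, with a summed level of 6290 UMIs per 1000000 UMIs of the gate (CPM), of which Hemgn, fixed by the gate, gave 1824. Without Hemgn the other 10 summed to 4466 CPM, against 69.5 to 356 in the other gates. Hemgn cells were split at 13.7 and 25.8 Hemgn UMIs per 10000 UMIs into low, middle and high terciles of 214, 213 and 214 cells. The low tercile was not purely erythroid. Of the 110 Hemgn cells that also passed another gate, 80 were in the low, 25 in the middle and 5 in the high tercile, and 51 passed the S100a8 gate, 45 the Cd79a gate and 12 the Col2a1 gate. Summed neutrophil markers (9 of 9 in the file) stood at 33043 CPM in the low tercile and 1562 in the high tercile, and summed chondrocyte markers (8 of 8) at 4333 and 53.7. Scrublet called 56 of the 641 cells (8.74%) doublets, and 40 of these were among the 110. The part of these cells in each high-to-low ratio below was not tested beyond the ratios given without them.

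The 4 globin genes made up 35.7% of all UMIs of the Hemgn cells. Per cell their share ran from 0.0325% to 77.1% with a median of 43.7%. Pooled over cells it was 23.5% (23.5 to 23.6) in the low tercile, 45.3% (45.2 to 45.3) in the middle and 43.5% (43.4 to 43.6) in the high tercile. The share was thus 1.93-fold higher in the middle and 1.85-fold higher in the high tercile than in the low one, and the middle tercile lay above the high one (log2 ratio of high to middle −0.057, −0.061 to −0.053). Of the 51 Hemgn cells with under 5% globin, 48 were in the low tercile, 3 in the middle and 0 of 214 in the high tercile. The share of high cells with at least 5% globin was thus 100% (98.3 to 100).

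**Figure D1:**
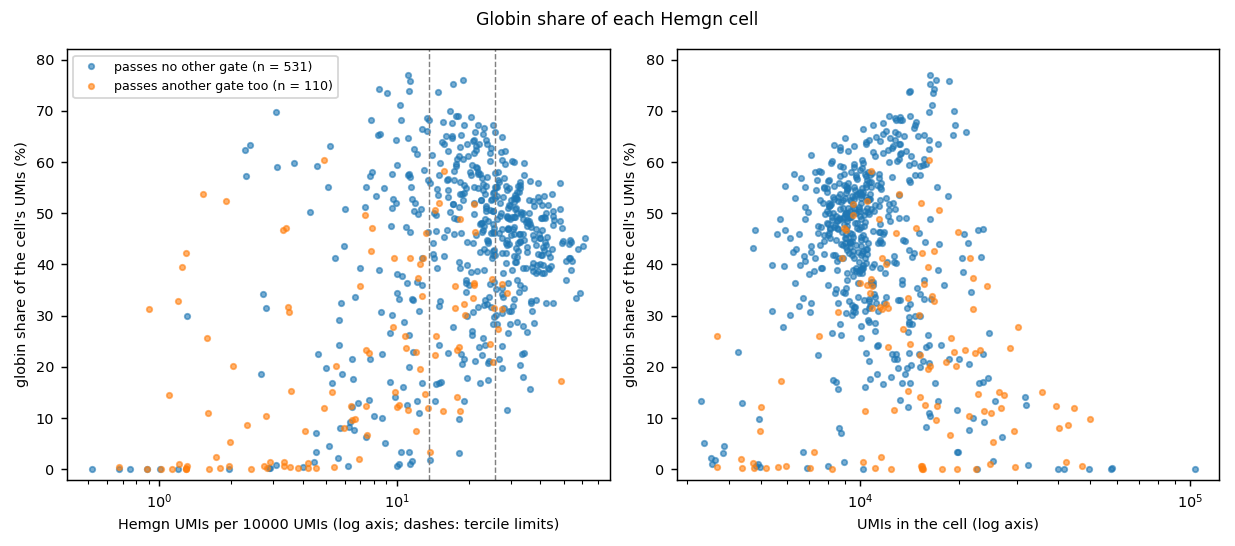
Globin share of UMIs (y, %) of each of the 641 Hemgn cells against Hemgn UMIs per 10000 UMIs (left, log axis, dashed lines at the tercile limits) and against the UMIs of the cell (right, log axis); orange points are the 110 cells that also pass another gate. Of the 51 cells with under 5% globin, 48 lie to the left of the first tercile limit, and the lowest cell of the high tercile holds 11.6%.

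Each globin gene showed the same order of terciles. Hba-a1, at chr11:32283511-32284465 on the plus strand (GRCm38), stood at 51155 CPM in the low, 101660 in the middle and 100710 in the high tercile. Hba-a2, 12.0 kb downstream at chr11:32296489-32297298, stood at 27190, 52378 and 47022. Both alpha genes thus had their lowest level in the low tercile, and Hba-a2 was lower in the high than in the middle tercile. Hbb-bs, at chr7:103826534-103828096 on the minus strand, stood at 121320, 233000 and 224560 CPM. Hbb-bt, 12.5 kb from it at chr7:103812524-103813996, stood at 35388, 65760 and 62853. From the low to the high tercile the log2 ratio was 0.98 for Hba-a1, 0.79 for Hba-a2, 0.89 for Hbb-bs and 0.83 for Hbb-bt, and 0.89 (0.88 to 0.89) for their sum. The ratio of the sum was 0.61 with the cells that passed another gate left out of both terciles, and 0.42 (0.42 to 0.43) among cells that passed no other gate, split into terciles anew. It was 1.44 at a floor of 1600 genes and 2.18 with globin UMIs left out of the denominator and of the terciles.

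The levels of the 2 alpha genes cannot be separated with certainty. The coding sequences of Hba-a1 and Hba-a2 shared 428 of 429 bases and those of Hbb-bs and Hbb-bt 443 of 444. After the stop codon all 74 bases of Hba-a1 recurred among the 90 of Hba-a2, whereas the 2 beta genes were 70.4% identical there. The level of each alpha copy alone is therefore uncertain. The beta copies can be told apart after the stop codon, and how reads of their coding sequence were assigned was not tested. Embryonic globins were near absent: Hba-x, Hbb-y and Hbb-bh2 held 0 to 5 UMIs in each tercile and Hbb-bh1 held none. Hbq1b, a theta globin gene, was the remaining globin with at least 50 UMIs, with 45.3 CPM in the low and 114 in the high tercile, a log2 ratio of 1.33 (1.04 to 1.63).

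Promoters of 6 of the 8 genes, all but Slc4a1 and Car2, were matched in the table of RefSeq promoters (GRCm38.p6) used here. Windows of 250 bases before the transcription start were searched on both strands for AGATAA or TGATAA, each also with a final G in place of the final A, which fit GATA factors, for CCNCNCCC, which fits Klf1 and related factors, and for CCAAT. Of all 32536 such windows of the table, 26.5% held a GATA motif, 46.2% a CCNCNCCC motif, 33.8% a CCAAT motif and 2.76% all 3. RefSeq and GENCODE place the starts of these 6 genes differently, and each window overlaps the GENCODE span of its gene. The genes of the sequences below were each higher in Hemgn cells than in the other barcodes of at least 1000 genes. The sequences are printed 5′ to 3′ on the strand of the gene, with the matched bases in capitals. They cover chr11:32283422-32283671 for Hba-a1, chr7:103827929-103828178 for Hbb-bs, chr7:103813924-103814173 for Hbb-bt, chrX:150547167-150547416 for Alas2 and chr8:84901732-84901981 for Klf1.
Hba-a1: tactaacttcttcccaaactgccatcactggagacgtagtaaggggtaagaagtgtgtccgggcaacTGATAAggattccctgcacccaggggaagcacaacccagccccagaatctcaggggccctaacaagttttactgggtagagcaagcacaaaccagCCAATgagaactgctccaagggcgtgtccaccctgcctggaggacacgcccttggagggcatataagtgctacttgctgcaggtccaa
Hbb-bs: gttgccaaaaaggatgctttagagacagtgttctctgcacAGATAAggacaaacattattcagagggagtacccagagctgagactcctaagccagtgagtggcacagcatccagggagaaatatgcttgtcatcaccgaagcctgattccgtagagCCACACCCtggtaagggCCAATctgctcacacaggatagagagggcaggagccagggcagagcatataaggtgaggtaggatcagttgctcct
Hbb-bt: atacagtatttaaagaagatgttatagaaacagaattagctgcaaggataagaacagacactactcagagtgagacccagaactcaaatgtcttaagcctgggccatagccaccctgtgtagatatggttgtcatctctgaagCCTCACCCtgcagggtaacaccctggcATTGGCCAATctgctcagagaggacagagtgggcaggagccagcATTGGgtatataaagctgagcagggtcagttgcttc
Alas2: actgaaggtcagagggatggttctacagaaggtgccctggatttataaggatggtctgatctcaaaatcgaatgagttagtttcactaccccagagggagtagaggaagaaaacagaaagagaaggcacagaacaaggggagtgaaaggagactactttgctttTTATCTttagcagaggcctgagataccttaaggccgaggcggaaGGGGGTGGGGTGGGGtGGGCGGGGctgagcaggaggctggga
Klf1: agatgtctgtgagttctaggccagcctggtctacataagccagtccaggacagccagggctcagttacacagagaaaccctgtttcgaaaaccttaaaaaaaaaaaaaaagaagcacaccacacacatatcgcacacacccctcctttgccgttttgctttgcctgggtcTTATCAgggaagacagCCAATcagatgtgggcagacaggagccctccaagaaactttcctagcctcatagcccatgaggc

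The window of Hbb-bs held all 3 motifs, with a GATA motif starting 210 bases, a CCNCNCCC motif 93 bases and a CCAAT motif 76 bases before the start. That of its neighbour Hbb-bt held no GATA motif, 1 CCNCNCCC motif and 3 CCAAT motifs, of which those at 80 and 75 bases lie next to each other on opposite strands. The 2 beta windows were 70.9% identical. The alpha windows were 97.6% identical, and both Hba-a1 and Hba-a2 held 1 GATA and 1 CCAAT motif and no CCNCNCCC motif. Alas2 held a GATA motif 86 bases before the start and 4 CCNCNCCC matches within 42 bases of it, of which the first 3 overlap each other. Klf1 held a GATA motif at 80 and a CCAAT motif at 64 bases. A match describes the letters of the window and does not show that a factor binds there.

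Alas2 encodes the red cell form of 5-aminolevulinate synthase and lies at chrX:150547375-150570638. It stood at 482 CPM (459 to 506) in the low, 910 (873 to 947) in the middle and 903 (863 to 944) in the high tercile. A cell held 0 to 28 of its UMIs, with a median of 8. The log2 ratio of high to low was 0.91 (0.81 to 1.00), and that of high to middle was −0.011 (−0.099 to 0.077), so that those 2 terciles did not differ beyond counting error. The ratio of high to low was 0.50 among cells that passed no other gate, split into terciles anew, and 0.47 with the low tercile limited to cells with at least 5% globin. Alas2 was seen in 81.3% of low, 98.6% of middle and 99.5% of high cells, and in 56.7%, 81.2% and 82.1% when every cell was thinned to 2000 UMIs.

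Genes of heme synthesis mostly had ratios above 0, but short of 2-fold. As background, of 6222 genes with at least 50 UMIs in the low and high terciles together, 340 (5.46%) were at least 2-fold higher and 2823 (45.4%) at least 2-fold lower in the high tercile, with a median log2 ratio of −0.82. All of the lists below were read against these shares. Of the 17 heme synthesis genes measured, Alas2 included, 0 were 2-fold higher and 1 was 2-fold lower, and 13 had a ratio above 0 with a median of 0.60. The 3 highest ratios after scaling were those of Cpox (0.96, 0.87 to 1.05), which encodes coproporphyrinogen oxidase, Ppox (0.94), the next enzyme, and Slc25a37 (0.92), the mitochondrial iron importer mitoferrin. The lowest was that of Alas1, the housekeeping counterpart of Alas2, with 81 UMIs in the low and 1 in the high tercile (−5.67, −10.99 to −3.15). Clpx, a mitochondrial protease subunit gene, had a ratio of −0.55.

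Of 10 measured genes of iron uptake, 0 were 2-fold higher and 1 was 2-fold lower, with a median of 0.094. The iron transporter gene Slc11a2 (0.92), the transferrin receptor gene Tfrc (0.60, 459 to 698 CPM) and the ferritin gene Fth1 (0.30) had the highest ratios, and Tfr2 (−1.92), Steap3 (−0.98) and Ireb2 (−0.57) the lowest. Of 6 measured genes of heme breakdown and export, 0 were 2-fold higher and 1 was 2-fold lower. Abcg2, a porphyrin exporter, had the highest ratio (0.97), followed by Slc48a1 (0.40) and the iron exporter Slc40a1 (0.25), and the heme oxygenase gene Hmox2 the lowest (−2.48), below Blvra (−0.32) and Blvrb (0.24).

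Slc4a1 encodes band 3, the anion exchanger of the red cell membrane, and lies at chr11:102348824-102366203 on the minus strand. Of the 8 genes it had the largest further step from the middle to the high tercile. It stood at 1247 CPM (1210 to 1286) in the low, 2516 (2455 to 2578) in the middle and 3052 (2979 to 3127) in the high tercile, and the log2 ratio was 1.29 (1.24 to 1.35) from low to high and 0.28 (0.23 to 0.33) from middle to high. The ratio of high to low was 0.90 among cells that passed no other gate, split into terciles anew, and 0.87 with the low tercile limited to cells with at least 5% globin, both short of 2-fold. Cells held 0 to 58, 2 to 66 and 10 to 62 of its UMIs in the 3 terciles. Slc4a1 was seen in 87.9%, 100% and 100% of their cells, and in 77.0%, 98.5% and 99.4% at 2000 UMIs.

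Genes of the red cell membrane and its skeleton stood out from the background in number. Of 23 measured genes, Slc4a1 included, 12 were at least 2-fold higher and 0 were 2-fold lower, and 22 had a ratio above 0 with a median of 1.01. The largest ratios were those of Dmtn (1.76, 1.57 to 1.94), which encodes the actin-bundling protein dematin, Tmod1 (1.67), which caps actin filaments, and Gypc (1.55), a glycophorin. Sptb, which encodes the beta spectrin of red cells, had a ratio of 1.29 and Ank1, the ankyrin that binds band 3, 1.19. Mpp1 (−0.10), Tmcc2 (0.30) and Cd47 (0.35) had the lowest. Without Slc4a1, 11 of 22 were 2-fold higher.

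Klf1, at chr8:84901928-84905291, had the lowest counts of the 8 genes. It stood at 167 CPM (153 to 181) in the low, 252 (233 to 272) in the middle and 267 (245 to 290) in the high tercile. Its highest count in a cell was 24, and the medians were 2, 3 and 2. The log2 ratio of high to low was 0.68 (0.51 to 0.85), and the middle and high terciles did not differ beyond counting error (0.083, −0.082 to 0.25). It was 0.25 (0.061 to 0.43) with the cells that passed another gate left out of both terciles, and 0.19 (0.0062 to 0.37) when the remaining cells were split into terciles anew. Klf1 was seen in 69.6%, 84.5% and 92.1% of cells, but in 27.0%, 37.5% and 41.6% at 2000 UMIs, so that the share depended strongly on depth.

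The erythroid regulators were divided. Of 18 measured genes, 6 were 2-fold higher and 4 were 2-fold lower, with a median of 0.59. Klf3 (1.86, 1.74 to 1.98), a repressor of the Klf family whose level went from 244 to 886 CPM, E2f2 (1.69), a cell cycle regulator, and Epor (1.23), the erythropoietin receptor gene, had the highest ratios. Myb (−4.41), Bcl11a (−4.20) and Runx1 (−1.62) had the lowest, and all 3 are also expressed in other blood cells. Gata1, the founding erythroid factor, had a ratio of 0.50 (0.18 to 0.82).

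Car2 lies at chr3:14886273-14900770 and encodes a cytosolic carbonic anhydrase. Its level was 3041 CPM (2983 to 3100) in the low, 4390 (4309 to 4472) in the middle and 4528 (4439 to 4619) in the high tercile. Every cell of the high tercile held at least 15 of its UMIs. The log2 ratio of high to low was 0.57 (0.53 to 0.61), an interval that overlaps that of Klf1, and it was 0.17 (0.13 to 0.21) with the cells that passed another gate left out of both terciles and 0.13 (0.087 to 0.17) when the remaining cells were split anew. Its relative Car1 went the other way, from 460 CPM in the low to 63.5 in the high tercile (−2.86, −3.12 to −2.60), and Car3 had 92 and 1 UMIs (−5.85). Of the 13 carbonic anhydrase genes, these 3 were the ones with at least 50 UMIs.

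**Figure D2:**
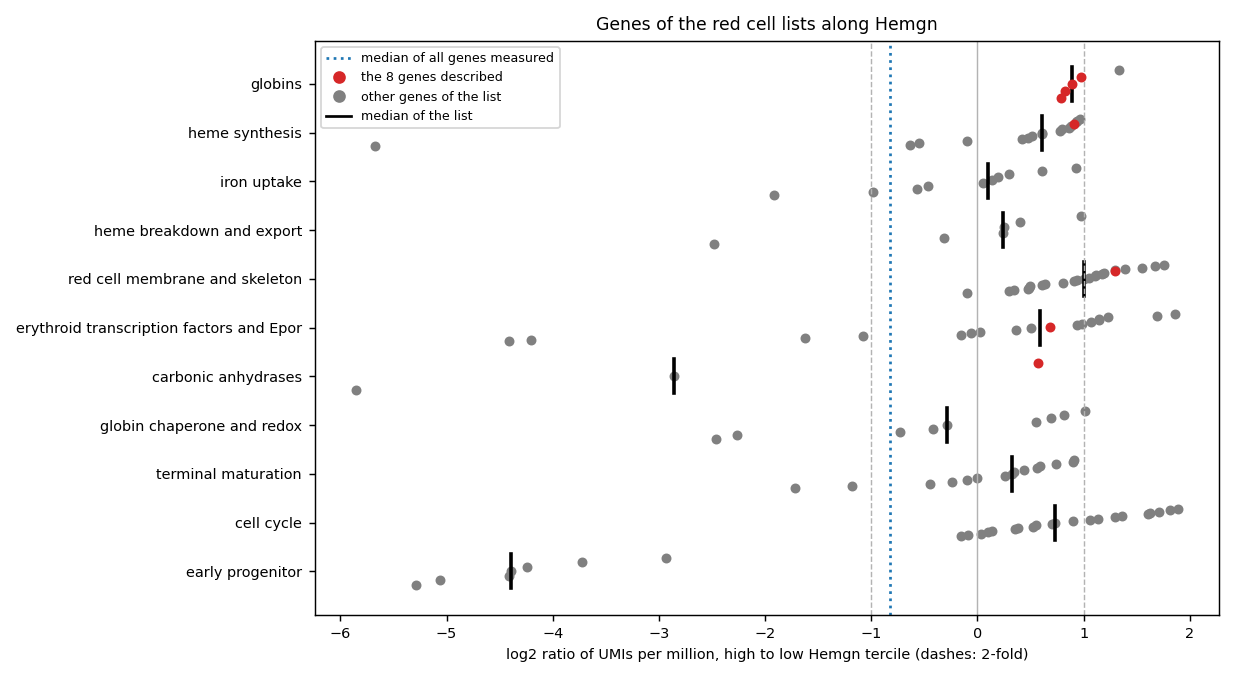
Log2 ratio of CPM in the high to the low Hemgn tercile (x) for each measured gene of 11 lists (rows); red points are the genes described, grey points the other genes of the list, black bars the list medians, dashed lines 2-fold and the dotted line the median of all genes, −0.82. The membrane list sits farthest to the right with a median of 1.01. The early progenitor list, with 7 of its 13 genes measured, sits farthest to the left with −4.39.

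Of 21 cell cycle genes, 9 were 2-fold higher in the high tercile and 0 were 2-fold lower, with Aurkb (1.89), Cdkn2c (1.81) and Mki67 (1.71, from 1506 to 4919 CPM) at the top and Mcm3 (−0.16), Mcm5 (−0.085) and Mcm4 (0.029) at the bottom. Of 15 genes of terminal maturation, 0 were 2-fold higher and 2 were 2-fold lower. The latter were Xpo7 (−1.72), a nuclear exportin, and Bpgm (−1.18), the enzyme of 2,3-bisphosphoglycerate synthesis, and Hagh (0.91), Trim58 (0.90) and Isg20 (0.74) had the highest ratios. The early progenitor list has 13 genes, of which 7 had enough UMIs in the low and high terciles together to be measured. All 7 were 2-fold lower, from Cd44 (−2.94) to Cdk6 (−5.29). They reached this limit mainly through the low tercile, with 280 UMIs of Cd44 against 23 in the high tercile and 249 of Cdk6 against 4. The count of 7 lower genes is thus partly set by that limit and is given as a description. These genes are also expressed outside the red cell lineage, and the low tercile held 80 of the 110 mixed cells, whose part in these ratios was not tested. Of 9 redox genes, 1 was 2-fold higher, Gclm (1.02) of glutathione synthesis, and 2 were 2-fold lower, G6pdx (−2.46) and Prdx1 (−2.27). Prdx2 (0.82) and Gpx1 (0.69), the peroxide-removing enzymes of the red cell, came next below Gclm. Hbb-bh0, Ahsp and Tent5c of these lists were not in the file.

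Globins are part of the total, and the ratios were also taken without them. With the terciles kept and globin UMIs left out of the denominator, the log2 ratio of high to low was 1.34 for Alas2, 1.73 for Slc4a1, 1.12 for Klf1 and 1.01 for Car2. With the cells also split anew by Hemgn relative to non-globin UMIs, it was 1.99, 2.19, 1.23 and 1.24, and the median of all genes moved up by 0.26. The directions of the summed globins, Alas2, Slc4a1, Klf1 and Car2 did not turn on this scale. Of the genes past 2-fold, 10.7% were higher on the scale of all UMIs and 25.9% on that without globin.

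A finer order appeared when the 531 Hemgn cells that passed no other gate were arranged by their globin share, an arrangement made after the terciles had been seen. It is a description, since the globin share orders the cells, and it is given as CPM of non-globin UMIs. The classes held 24 cells with under 5% globin, 38 with 5 to 20%, 121 with 20 to 40%, 279 with 40 to 60% and 69 with 60% or more. Detected genes had medians of 2636.5, 2717, 1988, 1504 and 1238 in this order.

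Alas2 spanned the widest range of the 4 non-globin genes. It stood at 18.5 (8.86 to 34.0), 356, 1127, 1967 and 3444 (3241 to 3657) CPM of non-globin UMIs. Slc4a1 stood at 116 (89.5 to 149), 1602, 3376, 5984 and 7960. Between the first and the last class both genes therefore differed more than Klf1, which stood at 150 (119 to 186), 366, 409, 509 and 594 (511 to 686). Car2 was already high in some cells that held almost no globin. It stood at 3172 (3023 to 3325), 5213, 6944, 9152 and 11466, with 16.7% of the UMIs of the first class from 1 cell. Deep cells carried that class, such as 1 of 57851 UMIs with 286 of Car2 and 1 of 103543 UMIs with 267. Car1 had the reverse order, at 1532 (1430 to 1640), 816, 446, 45.4 and 9.68 (2.00 to 28.3).

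The other genes followed the same arrangement with their own turning points. Hemgn itself stood at 305, 1455, 3363, 5316 and 5055 and so did not set apart the last 2 classes, and Mki67 stood at 920, 3015, 5688, 8107 and 7302. Bpgm stood at 18.5, 47.8, 112, 226 and 1401, and Xpo7 at 3.70, 5.97, 70.9, 238 and 1314. Both of these late genes were thus highest in the class richest in globin, although they were lower in the high than in the low Hemgn tercile. The low tercile held 53 cells with at least 50% globin beside its 48 cells with under 5%.

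The make-up of the globin UMIs also moved along this order. Hba-a2 made up 20.4% (18.2 to 22.7) of alpha globin UMIs in cells with under 5% globin, 22.2% (21.7 to 22.8) at 5 to 20%, 28.9% at 20 to 40%, 33.0% at 40 to 60% and 38.5% (38.3 to 38.7) at 60% or more. A few cells carried much of the first class, and its interval does not cover their spread. One with 1.73% globin held 175 UMIs of Hba-a1 and 33 of Hba-a2, and another with 0.197% held 23 of each. Hbb-bt went from 33.9% of adult beta globin UMIs through 29.7%, 25.9% and 21.4% to 20.1%. These shares compare UMI counts, not scaled by length, of copies with near-identical coding sequences. The part of read assignment between the copies in them was not tested.

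**Figure D3:**
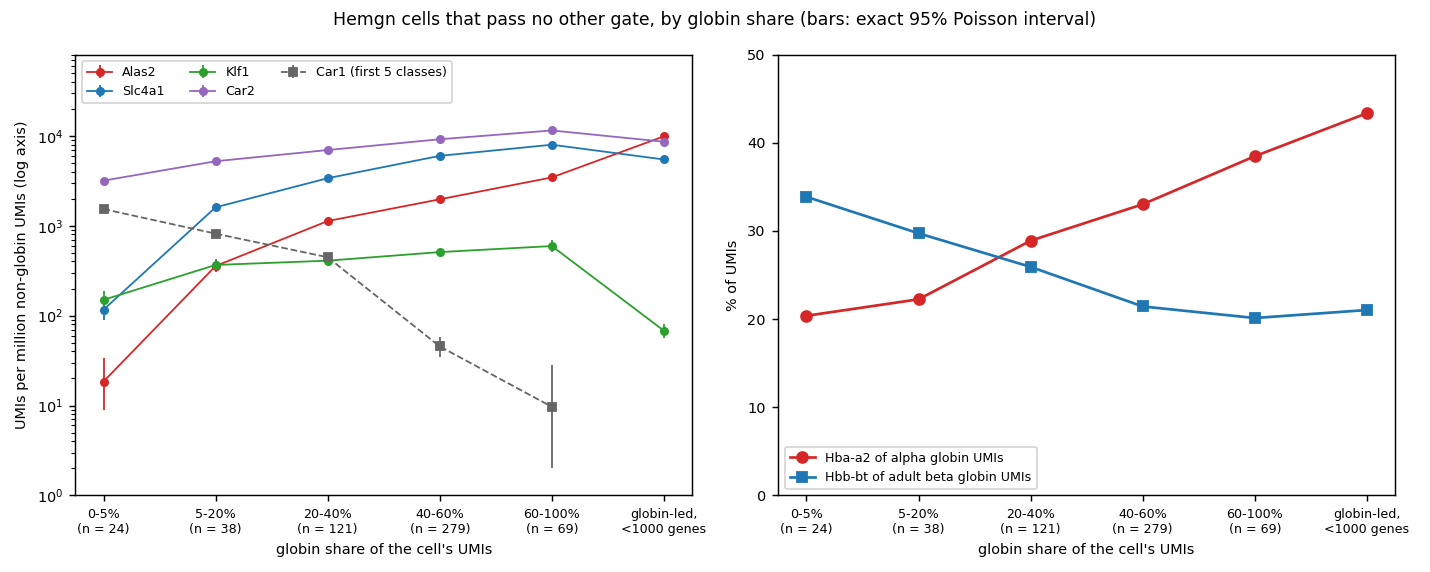
The 531 Hemgn cells that pass no other gate in 5 classes of globin share (x, number of cells in brackets), followed by the 1822 globin-led barcodes under 1000 genes; left, CPM of non-globin UMIs (log axis) with exact 95% Poisson intervals; right, the share of Hba-a2 in alpha and of Hbb-bt in adult beta globin UMIs (%). Alas2 goes from 18.5 to 3444 over the 5 classes while Car1 goes from 1532 to 9.68, and the Hba-a2 share goes from 20.4% to 43.4% at the globin-led barcodes.

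Most globin UMIs lay outside the Hemgn cells, in barcodes with few genes. Of the barcodes under 1000 genes, 1822 had at least 50% globin, with medians of 213 genes, 8093.5 UMIs and 89.9% globin. They held 72.9% of all globin UMIs of the matrix and the Hemgn cells 17.0%. They had no Hemgn UMI in 1469 of 1822 barcodes.

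The non-globin genes differed widely in these globin-led barcodes. Alas2 was seen in 98.6% of them at 1365 CPM, 0.91 (0.86 to 0.95) on the log2 scale above the Hemgn cells, and Slc4a1 at 754, −1.49 (−1.53 to −1.46) against them. Car2 stood at 1189 (−1.70) and Klf1 at 9.40 (−4.55, −4.81 to −4.30). Klf1 thus stood lowest relative to the Hemgn cells, and it was seen in 5.60% of the barcodes. On the scale of non-globin UMIs the log2 ratios were 3.12 for Alas2, 0.72 for Slc4a1, 0.52 for Car2 and −2.33 for Klf1, so that Slc4a1 and Car2 changed sign with the scale. The Hba-a2 share of alpha globin was 43.4% (43.3 to 43.4) and the alpha share of the 4 globins 38.2%, against 33.5% (33.4 to 33.6) and 33.8% in Hemgn cells.

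The other gates give the level of free RNA, that is, of transcripts from broken cells that enter every droplet. Pooled over cells, globins made up 1.73% of UMIs in Kit and Cd34 cells, 4.07% in Cd79a cells, 2.93% in S100a8 cells, 1.37% in Col2a1 cells, 2.38% in Bglap cells and 0.993% in Acp5 and Ctsk cells. Few cells carried these values. The medians per cell were 0.0863%, 0.288%, 0.170%, 0.0918%, 0.0825% and 0.0732%, and 93.2% to 96.4% of each gate's globin UMIs sat in its cells with at least 5% globin, which were 7, 110, 126, 18, 5 and 1 in number. The median cell is therefore the value read here as the free-RNA level. Among cells with under 5% globin and under 2 Hemgn UMIs, the median ran from 11 globin UMIs in Cd79a cells to 18.5 in Acp5 and Ctsk cells. It moved less than depth did, with medians of 12, 13 and 14 globin UMIs at median depths of 4059, 7162 and 16424 UMIs in S100a8 cells, and of 12, 16 and 22 at 9388.5, 16851 and 31839 UMIs in Col2a1 cells.

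Summed globins of Hemgn cells, pooled over cells, stood 8.77-fold above all Cd79a cells, 12.2-fold above S100a8 cells, 20.6-fold above Kit and Cd34 cells and 26.0-fold above Col2a1 cells. With those gates limited to cells with under 5% globin and under 2 Hemgn UMIs, the folds were 174, 245, 458 and 411. The limit was set on globin itself, so these larger folds are a description of the cells left after it. In the same limited cells, Hba-a1 was still seen in 90.3% of Cd79a and 92.1% of S100a8 cells, but at a median of 2 and 3 UMIs a cell. A share of cells with a UMI thus does not tell globin-making cells from the rest here.

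**Figure D4:**
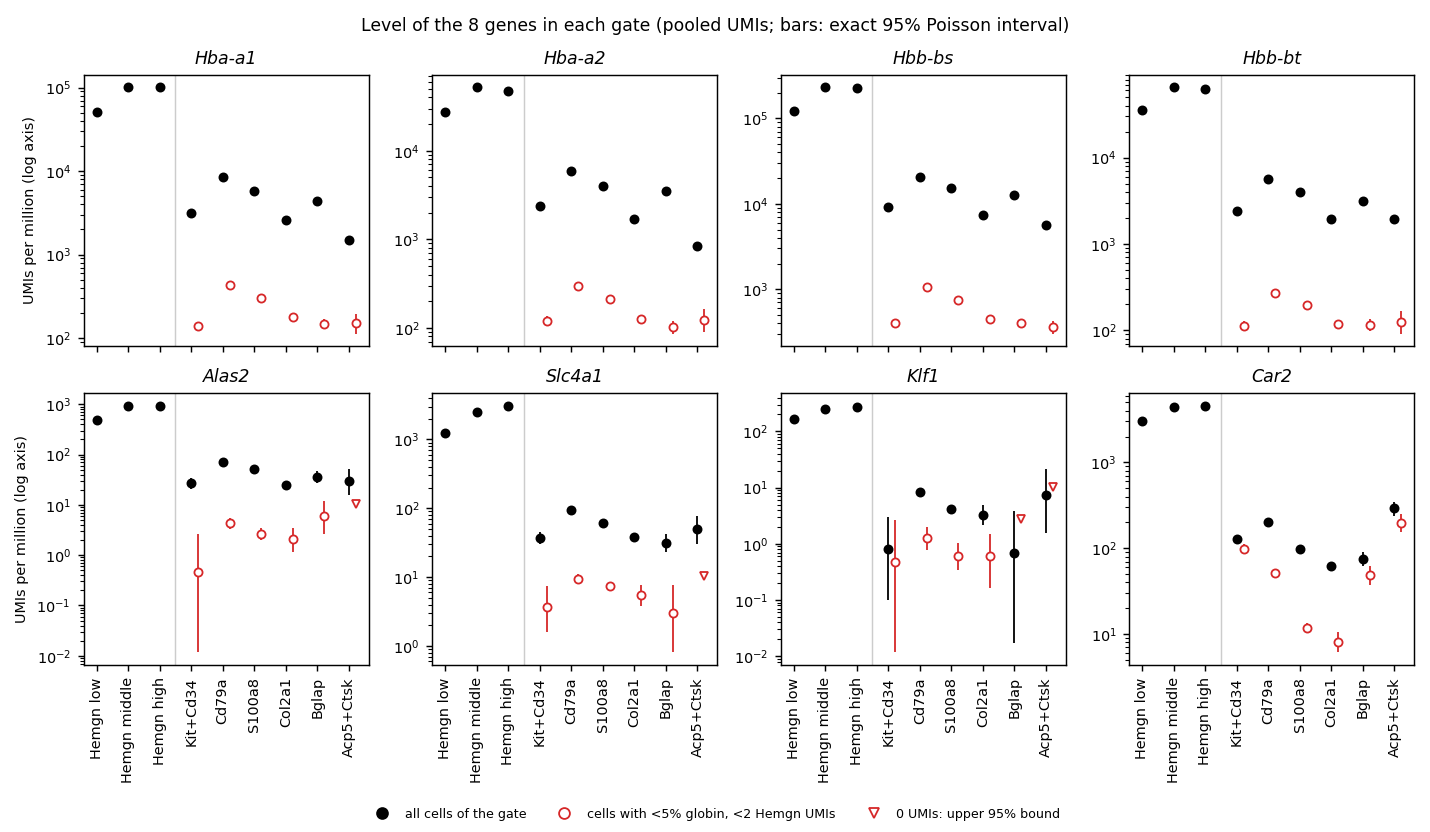
CPM (log axis) of each of the 8 genes in the 3 Hemgn terciles and 6 other gates; filled points are all cells of the gate, open points its cells with under 5% globin and under 2 Hemgn UMIs, triangles the upper bound where no UMI was seen, and bars exact 95% Poisson intervals, often smaller than the points. Each gene is highest in the Hemgn cells, and the open points lie far below. This includes Car2, which stands at 198 in the Acp5 and Ctsk gate against 3041 to 4528 in the terciles.

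Alas2, Slc4a1 and Klf1 were close to absent in the limited cells. Alas2 stood at 0.466 to 5.98 CPM in 5 gates and had 0 UMIs in the 14 Acp5 and Ctsk cells, which, at 3 counts of 14, limits cells with a UMI to 21.4% and says nothing of cells that express the gene. Slc4a1 stood at 2.99 to 9.48 in the same 5 gates, and Klf1 at 0.466 to 1.27 in 4 of them with 0 UMIs in the 50 Bglap cells. Set against globin, Alas2 had 2.04 (1.99 to 2.09) UMIs for every 1000 globin UMIs in Hemgn cells. In the limited cells it had 2.12 (1.63 to 2.70) in Cd79a, 1.84 (1.40 to 2.36) in S100a8, 2.40 (1.31 to 4.02) in Col2a1 and 0.599 (0.0152 to 3.34) in Kit and Cd34 cells. Bglap cells, with 8 Alas2 UMIs, had 7.84 (3.39 to 15.5), above the Hemgn cells by more than counting error. Slc4a1 had 5.96 (5.87 to 6.05) in Hemgn cells, and 5.09 (4.35 to 5.92) in S100a8, 6.34 (4.46 to 8.74) in Col2a1, 4.79 (2.07 to 9.44) in Kit and Cd34 and 3.92 (1.07 to 10.0) in Bglap cells. In Cd79a cells it had 4.62 (3.89 to 5.45), an interval that lies below that of the Hemgn cells.

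Car2 spread widely over the gates. In the limited cells it stood at 198 CPM (154 to 249) in Acp5 and Ctsk cells, 97.9 (85.1 to 112) in Kit and Cd34 cells, 51.8 (48.2 to 55.6) in Cd79a cells, 48.6 (37.5 to 61.9) in Bglap cells, 11.9 (10.5 to 13.4) in S100a8 cells and 8.18 (6.16 to 10.6) in Col2a1 cells. In this order the intervals of the Cd79a and Bglap gates overlap, and so do those of the S100a8 and Col2a1 gates. For every 1000 globin UMIs, Car2 had 8.16 (7.22 to 9.19) in S100a8 and 9.42 (7.10 to 12.3) in Col2a1 cells, against 10.8 in Hemgn cells, which lies above the S100a8 interval and within that of Col2a1 cells. It had 25.3 (23.5 to 27.1) in Cd79a, 63.7 (49.2 to 81.2) in Bglap, 126 (109 to 144) in Kit and Cd34 and 260 (203 to 328) in Acp5 and Ctsk cells. These 4 gates thus held more Car2 relative to globin than the Hemgn cells. The globin-led barcodes held less Car2 for every 1000 globin UMIs than any of the gates named here. Where the Car2 UMIs of these gates came from was not tested. Car2 was seen in 11 of the 14 Acp5 and Ctsk cells, with a median of 5 UMIs, and in 47 of 101 Kit and Cd34 cells, and 1 cell held 29.2% of the UMIs of the Bglap gate and 34.5% of those of the Col2a1 gate. At 2000 UMIs the shares of cells were 28.5% in Acp5 and Ctsk, 17.8% in Kit and Cd34, 7.66% in Bglap, 6.94% in Cd79a, 2.57% in S100a8 and 1.11% in Col2a1 cells.

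Globin-rich cells with few or no Hemgn UMIs differed from Hemgn cells in their gene ratios. Among the 7382 barcodes of at least 1000 genes with under 2 Hemgn UMIs, 247 had at least 5% globin, and 221 of these had no Hemgn UMI. Of the 247, 88 passed the S100a8 gate, 74 the Cd79a gate and 77 none. For every 1000 globin UMIs they held 1.64 (1.58 to 1.70) of Alas2, 0.797 (0.753 to 0.843) of Slc4a1, 1.40 (1.35 to 1.46) of Car2 and 0.0072 (0.0036 to 0.013) of Klf1. The globin-led barcodes held 1.58, 0.875, 1.38 and 0.011 of the same genes, and the Hemgn cells 2.04, 5.96, 10.8 and 0.617. On all 4 genes the 247 cells lay far nearer to the globin-led barcodes than to the Hemgn cells. Their Hba-a2 share of alpha globin, 43.3% (43.1 to 43.4), was also that of the globin-led barcodes.

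**Figure D5:**
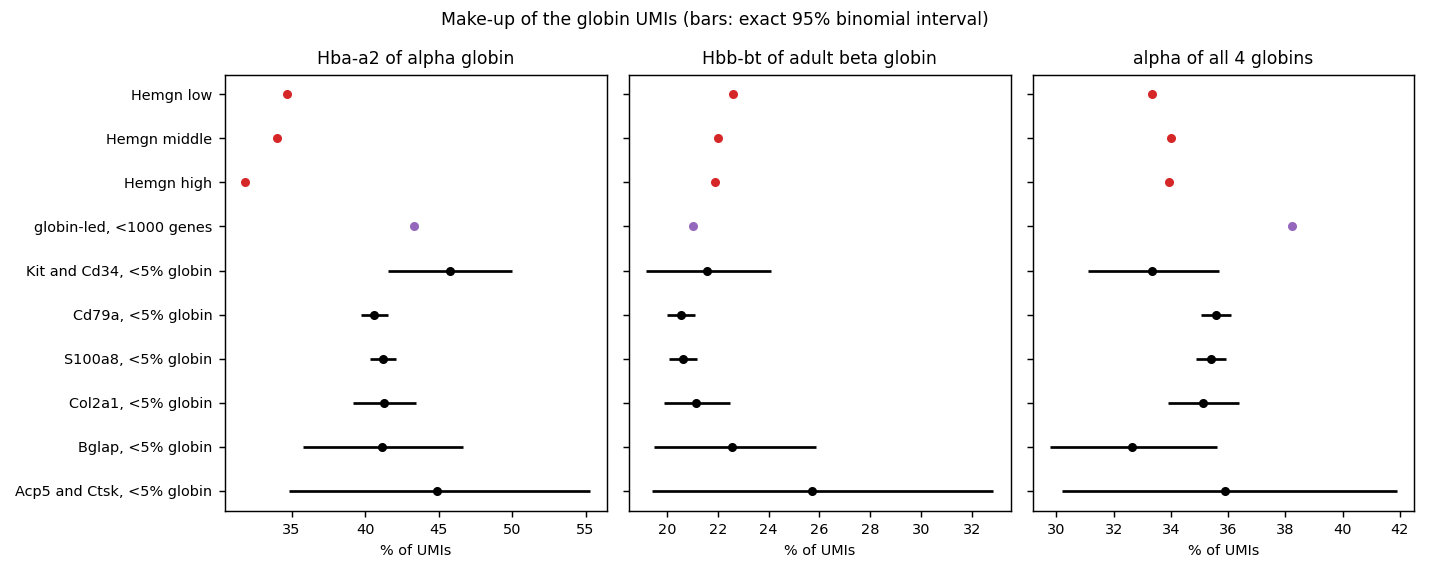
Share (x, %) of Hba-a2 in alpha globin UMIs (left), of Hbb-bt in adult beta globin UMIs (middle) and of alpha in the UMIs of the 4 globins (right), for the Hemgn terciles, the globin-led barcodes and the cells of other gates with under 5% globin and under 2 Hemgn UMIs; bars are exact 95% binomial intervals. The Hba-a2 share is 31.8% to 34.7% in the terciles, 43.4% in the globin-led barcodes and 40.6% to 45.8% in the other gates.

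The make-up of the globin UMIs was also taken in the limited cells of the other gates. Hba-a2 made up 40.6% (39.7 to 41.5) of alpha globin UMIs in Cd79a, 41.2% (40.3 to 42.1) in S100a8 and 41.3% (39.2 to 43.5) in Col2a1 cells, shares that did not differ beyond counting error and that were above the 33.5% of Hemgn cells. It made up 45.8% (41.6 to 50.02) in Kit and Cd34 cells, 44.9% (34.8 to 55.3) in Acp5 and Ctsk cells and 41.1% (35.8 to 46.6) in Bglap cells. Hbb-bt made up 20.5% of adult beta globin UMIs in Cd79a, 20.6% in S100a8, 21.2% in Col2a1, 21.6% in Kit and Cd34, 22.6% in Bglap and 25.7% in Acp5 and Ctsk cells, 21.0% in globin-led barcodes and 22.1% in Hemgn cells.

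Across the 641 Hemgn cells, the 4 globins ranked together most closely. On UMIs per 10000 non-globin UMIs, Spearman's rho between pairs of globins was 0.93 to 0.97, between globins and Alas2 0.79 to 0.81, between globins and Slc4a1 0.76 to 0.82 and between globins and Car2 0.70 to 0.74. Klf1, with a median of 2 UMIs a cell, reached 0.28 to 0.36 with the other 7. The points share depth, the denominator and the cells of mixed gates. In the 507 cells that passed no other gate and had at least 5% globin, the ranges were 0.89 to 0.96 between globins, 0.69 to 0.72 with Alas2, 0.63 to 0.72 with Slc4a1, 0.56 to 0.61 with Car2 and 0.056 to 0.15 for Klf1.

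The 8 genes themselves were left out of the following ranks. Of 2673 genes seen in at least 25% of the 641 cells, Gpx1, which encodes a glutathione peroxidase, was the most like each of the 4 globins (rho of 0.87 to 0.90), Alas2 (0.78) and Car2 (0.73), and it was second for Slc4a1 (0.81). Prdx2, which encodes a peroxiredoxin, was second for Hbb-bt (0.78) and Car2 (0.69), and Ppp1r15a was among the top 3 for Slc4a1 (0.78) and Alas2 (0.70). The genes most like Klf1 were Anp32b (0.40), Prdx2 and Dek (0.39), and these fell to 0.14 to 0.22 in the 507 cells.

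Against all other barcodes of at least 1000 genes, the red cell lists differed in how many members were higher. Of 13241 genes with at least 50 UMIs in both sets together, 1012 (7.64%) were at least 2-fold higher and 7856 (59.3%) at least 2-fold lower in Hemgn cells, with a median log2 ratio of −1.33. Of 17 heme synthesis genes, 14 were 2-fold higher and 1 was 2-fold lower, and of 24 membrane genes 22 were 2-fold higher and 1 was 2-fold lower. Among 19 erythroid regulators 10 were 2-fold higher and 3 lower, among 15 terminal maturation genes 12 and 1, among 21 cell cycle genes 17 and 0, and among 9 redox genes 4 and 2. Of 11 iron uptake genes 4 were 2-fold higher and 0 lower, of 8 heme breakdown genes 3 and 3, of 8 carbonic anhydrase genes 2 and 6, and of 13 early progenitor genes 0 and 12. The log2 ratio was 4.11 (4.05 to 4.18) for Alas2, 6.31 (6.24 to 6.38) for Slc4a1, 7.38 (7.06 to 7.71) for Klf1, 5.72 (5.68 to 5.76) for Car2 and 3.81 for the summed globins. Of the 2702 Alas2 UMIs of the other barcodes, 2512 lay in the 247 cells with at least 5% globin, against 1222 of 1716 for Slc4a1, 2152 of 4700 for Car2 and 11 of 85 for Klf1.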

How the data were processed

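The authors digested tibiae in steps, discarded the early suspensions rich in blood cells, prepared 3′ droplet libraries and aligned reads to mm10 with Cell Ranger 3.1.0, and the deposited matrix holds their raw UMI counts per gene and barcode. Which annotation release was used was not given in the sources used here. No batch, sample or mouse could be read from the barcodes, and no column was left out.

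Cells were gated on marker genes at a floor of 1000 genes. Levels are UMIs summed over a gate per 1000000 UMIs (CPM). Their 95% intervals are exact Poisson ones, those of ratios exact conditional ones and those of shares exact Clopper-Pearson ones. Genes entered ratios at 50 UMIs or more in both sets together, and 2-fold was the limit for counting. Counts of 0 were bounded by 3 counts. Shares of cells were also taken after thinning to 2000 UMIs (100 draws). Doublets were kept, and Scrublet (scanpy 1.11.5, expected rate 6%) gave an alternative without them. The ratio script was tested on simulated data. Python 3.11.15, numpy 2.4.6, scipy 1.17.1 and pandas 2.3.3 were used. Coordinates are from GENCODE for GRCm38 and promoters from RefSeq for GRCm38.p6.

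Named were the 8 genes, up to 3 genes with the highest and 3 with the lowest ratio of each list, the 3 genes most like each of the 8 by Spearman's rho, and the genes that define gates. Some genes that this rule names are not reported here. Sptb, Ank1, Gata1 and the embryonic globins were added after their values were seen. The 8 genes and the lists were chosen with earlier results of these data known.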

Additional observations from a re-analysis of the deposited data

How the results depend on the processing

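The ratios of the high to the low tercile of the summed globins, Alas2, Slc4a1, Klf1 and Car2 changed sign under none of the alternatives run, and the ratios of other list genes were not run under them. Values follow in the order globin share of Hemgn cells (35.7%), globin share of S100a8 cells (2.93%), and the log2 ratios of summed globins (0.89), Alas2 (0.91), Slc4a1 (1.29), Klf1 (0.68) and Car2 (0.57), and a value that moved by no more than its interval is left out. A floor of 1600 genes left 358 of 641 cells and gave 26.5%, 2.59%, 1.44, 1.50, 1.76, 0.86 and 0.84. At least 5 Hemgn UMIs gave 38.0% and, from summed globins on, 0.58, 0.63, 0.98, 0.35 and 0.35. Cells that pass exactly 1 gate gave 40.4%, 2.32%, 0.42, 0.50, 0.90, 0.19 and 0.13. Without called doublets the shares were 36.7% and 2.67%, summed globins 0.87 and Car2 0.51. With globin UMIs left out of the denominator and the terciles, the values were 55.4% and 3.02% (globin relative to the other UMIs), 2.18, 1.99, 2.19, 1.23 and 1.24. With each cell weighing the same they were 39.3%, 2.08%, 0.63, 0.61, 1.05 and, for Car2, 0.51. A limit of 20% mitochondrial UMIs moved none of these.

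Chosen after seeing the data, S100a8 cells with under 5% globin gave 0.148% and the median S100a8 cell 0.170%. A low tercile limited to cells with at least 5% globin gave 0.45 for summed globins, 0.47 for Alas2, 0.87 for Slc4a1 and 0.45 for Car2. At 2000 UMIs the shares of Hemgn cells with a UMI were 98.1% for Hba-a1, 96.9% for Hba-a2, 99.0% for Hbb-bs, 97.1% for Hbb-bt, 73.4% for Alas2, 91.8% for Slc4a1, 35.1% for Klf1 and 95.3% for Car2. At a minimum of 20 UMIs, 8615 genes were tested in place of 6222, of which 4645 (53.9%) were 2-fold lower and 5025 past 2-fold in either direction, against 2823 (45.4%) and 3163, while the share higher was 4.41% against 5.46%, and without globin UMIs 892 were higher, against 340. The cause of these changes was not tested. No paired analysis was possible because no barcode carries a sample or replicate number. With 1 pooled sample the intervals cover counting error only, and Klf1 had a median of 2 UMIs a cell.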

Other observations

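The 19 Hemgn cells that also held Kit, a set chosen after the terciles had been seen, had Car2 at 2130 CPM (UMIs per 1000000) (2016 to 2249), Slc4a1 at 328 (284 to 377), Alas2 at 112 (87.2 to 142) and Klf1 at 110 (85.8 to 140). Car2 was seen in 18 of the 19 cells and Alas2 in 6. One cell held 21.8% of the Car2 UMIs and 30.9% of the Klf1 UMIs of this set.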
